A study of Mus musculus with 30 samples.

Results

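Integrins are cell surface receptors built from an alpha and a beta subunit. They bind extracellular matrix on the outside of the cell and link to the actin cytoskeleton on the inside through talin, vinculin and related adaptor proteins. In smooth muscle they hold cells to collagens, laminins and fibronectin of the vessel wall, and the subunits a cell makes set which of these matrix proteins it can bind. The subunits described here are 10 that are known from smooth muscle. Itga1 and Itga2 encode collagen receptor chains, Itga3 and Itga7 laminin receptor chains, and Itga5, Itga8 and Itgav chains of receptors that recognise the RGD motif in fibronectin, nephronectin, vitronectin and osteopontin. Itgb1 is the beta chain that can pair with every one of these alpha chains, while Itgb3 and Itgb5 pair with Itgav. The 10 genes were taken by name from a table of 78334 gene identifiers, and the rule that picks them is a list of names that uses no measured value, although the list was drawn up with earlier results of these data known. All 10 were found and all 10 passed the filter on low counts in both sequencing runs, but Itga8 passed it in run 3 only through libraries of the knockdown groups.

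The study sequenced RNA from 30 libraries labelled as mouse aortic smooth muscle cells, in which the long noncoding RNA CASC15 was lowered or raised. The protocol text speaks of mouse and rat cells, and which of them gave these libraries was not tested. All cells were held in serum-free medium for 48 h and transfected for at least 24 h. Run 2 held 4 groups with no further treatment: a control antisense oligonucleotide (2 libraries), an antisense oligonucleotide against total CASC15 (2), a control plasmid (3) and a plasmid that overexpresses total CASC15 (3). In run 3 there were 5 groups, with 4 libraries in each. These were the control oligonucleotide with no treatment, with angiotensin II (10 ng/ml for 24 h) or with PDGF-BB (10 to 30 ng/ml for 24 h), and an oligonucleotide against long CASC15 with no treatment or with the same angiotensin II dose. The oligonucleotides were GapmeRs, which direct RNase H to the RNA they bind. Angiotensin II is a vasoconstrictor peptide hormone, and PDGF-BB is a growth factor that drives smooth muscle cells to divide and migrate. Each library also carries a batch name between P16 and P19, and no group has more than 1 library in a batch. Of the 13 knockdown and overexpression libraries, 3 carry CASC15 in their titles and 10 carry other numbers, from CASC16 up to CASC22, with all 4 untreated long knockdown libraries among these. Groups were taken from the library names, which abbreviate the target without a number, so that CASC15 was the target in all 13 rests on the study's naming and was not tested from the titles. The labels do not say whether libraries came from separate cultures or animals, so p-values measure the spread between these libraries only.

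Total expected counts per library ranged from 18007199 to 21881959 (run 2) and from 15771490 to 30362047 (run 3). The gene taken as mouse CASC15, 2610307P16Rik, stood at 716 ± 174 CPM (counts scaled to library size, mean ± SD) in the overexpression libraries and 6.42 ± 2.34 in their plasmid controls. It stood at 5.52 ± 0.530 CPM in untreated controls of run 3 and 2.87 ± 0.561 with the long knockdown. In the libraries labelled total knockdown it stood at 9.01 ± 1.02 CPM against 7.02 ± 0.913 in their controls, so it was not lower there, and directions drawn from those libraries rest on the label alone. Of 10 smooth muscle markers, Acta2 (109 to 254 CPM as group means), Cald1 and Smtn were well expressed and Myl9 was at 2.27 to 16.5. The defining contractile genes Cnn1 (at most 0.162), Tagln (at most 3.25), Des (at most 2.14) and Lmod1 (at most 1.03) and the cofactor Myocd (at most 2.50) were low in every group, and Myh11 was at 5.49 in the libraries labelled total knockdown and at most 0.989 elsewhere. Of 6 fibroblast genes, Col1a1 and Dcn were at 664 CPM or more in every group, Pdgfra (3.10 to 47.4) and Pi16 (6.44 to 66.4) were lower, and Lum (at most 3.83) and Dpt (at most 0.487) were near 0. Of 4 epithelial genes the cadherin Cdh1 was at 44.3 to 174 CPM, while Krt8 (at most 3.18), Krt18 (at most 0.269) and Epcam (at most 0.187) were near 0.

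To set levels of different genes side by side, CPM was divided by the length of the longest annotated transcript (RPKM). On this scale Itgb1 was the most abundant subunit in all 9 groups and Itgb5 the next, by group means. With PDGF-BB the libraries of Itgb5 overlapped those of Itga3. In untreated control cells of run 3 Itgb1 stood at 353 ± 33.5 RPKM (SD, n = 4) and Itgb5 at 88.0 ± 9.55. The laminin receptor chain Itga3 (49.0 ± 2.41) and Itgav (42.6 ± 3.19) followed, then the fibronectin receptor chain Itga5 (16.3 ± 1.29) and Itgb3 (10.0 ± 1.43). None of these neighbours overlapped between libraries of that group. Below them, Itga2 (2.12 ± 0.885) and Itga7 (1.36 ± 0.0981) overlapped, and Itga1 was at 0.542 ± 0.0958. Itga8 was close to absent, at 0.00919 ± 0.00185 RPKM, which was 1, 1, 1 and 2 counts in the 4 libraries.

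By the longest transcript, the same 6 subunits led in all 9 groups, with Itgb1 and Itgb5 first, Itga5 the fifth and Itgb3 the sixth. The order of Itga3 and Itgav on this scale differed between groups. Itga3 was above Itgav with no overlap in untreated control cells (49.0 against 42.6 RPKM), in PDGF-BB cells (56.4 ± 6.13 against 47.4 ± 2.22) and with overexpression (55.9 ± 7.61 against 40.4 ± 8.77). It was below Itgav with no overlap in both long knockdown groups, at 36.2 ± 3.65 against 50.6 ± 1.66 without treatment and 38.2 ± 2.60 against 50.3 ± 3.10 with angiotensin II. In the other 4 groups their libraries overlapped. Among the scarce chains, Itga7 was highest in the antisense controls of run 2 (5.04 ± 1.68 RPKM, n = 2), and Itga8 was highest in the plasmid controls (0.811 ± 0.534, n = 3). Itga1 was lowest in the antisense controls of run 2 (0.116 ± 0.0308). The runs were not tested against each other.

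Expressed as shares, Itga3 made up 43.8% ± 1.08 and Itgav 38.1% ± 1.69 of the summed RPKM of the 7 alpha chains in untreated control cells of run 3. With the long knockdown the shares were 34.1% ± 2.01 and 47.8% ± 0.852. Among the 3 beta chains, Itgb1 held 78.2% ± 3.12 and Itgb5 19.6% ± 2.76 in untreated control cells, and 83.6% ± 2.17 and 14.1% ± 1.79 with PDGF-BB. The beta chains summed to 4.03 ± 0.0894 times the alpha chains in untreated control cells, 3.70 ± 0.0319 times with PDGF-BB and 3.40 ± 0.174 times with the long knockdown. Levels between genes, and their order, depend on the transcript length used. With the median annotated length, Itgb5 was above Itgb1 in 2 of 9 groups, the antisense controls of run 2 (527 against 473 RPKM) and the libraries labelled total knockdown (601 against 472), and Itgav was above Itga3 in all 9 groups. With the median annotated length, Itgav held 68.7% of the alpha chains and Itgb5 37.7% of the beta chains in the same control cells, while the share of Itgav was again higher with the long knockdown, at 76.5%.

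**Figure D1:**
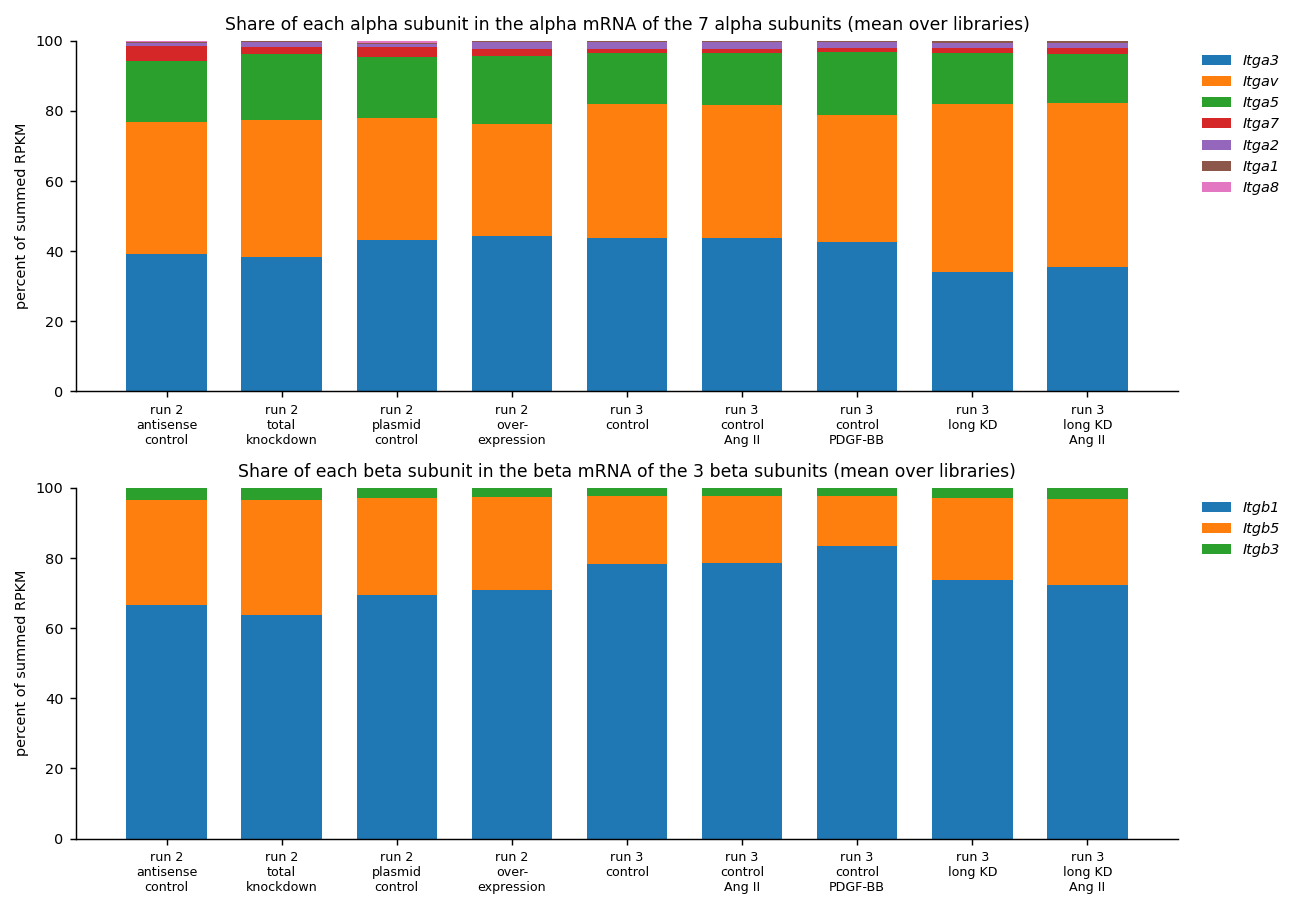
Stacked bars give the percent of the summed RPKM that each alpha subunit (top) or beta subunit (bottom) held in each of the 9 groups, as means over libraries. Itgav took 38.1% of the alpha chains in untreated run 3 controls and 47.8% with the long knockdown (long KD), and Itgb1 took 78.2% of the beta chains in those controls and 83.6% with PDGF-BB.

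The promoters of the 4 subunits on which the comparisons turn are given here as context for their changes in mRNA. They are Itgb1 and Itga3, which were lower with the long knockdown, Itgav, which was higher, and Itga5, which was higher with PDGF-BB. The sequences are the 250 bases before the RefSeq start of each gene in GRCm38.p6, read 5′ to 3′ on the strand of the gene: Itgb1 at chr8:128685404-128685653 on the plus strand, Itga3 at chr11:95076715-95076964 on the minus strand, Itgav at chr2:83724147-83724396 on the plus strand and Itga5 at chr15:103366792-103367041 on the minus strand. Capitals mark GGGCGG, the core of the GC box bound by Sp factors, and CATTCC, the core of the element bound by TEAD factors, on either strand.
Itgb1: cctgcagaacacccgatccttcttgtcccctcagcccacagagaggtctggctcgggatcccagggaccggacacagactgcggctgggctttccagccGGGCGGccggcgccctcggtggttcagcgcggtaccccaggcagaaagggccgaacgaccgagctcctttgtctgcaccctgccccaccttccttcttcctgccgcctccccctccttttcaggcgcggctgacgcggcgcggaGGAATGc
Itga3: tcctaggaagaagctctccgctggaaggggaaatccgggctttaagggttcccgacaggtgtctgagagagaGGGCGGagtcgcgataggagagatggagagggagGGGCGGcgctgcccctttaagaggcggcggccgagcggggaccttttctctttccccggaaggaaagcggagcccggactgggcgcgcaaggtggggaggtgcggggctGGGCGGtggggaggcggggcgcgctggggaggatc
Itgav: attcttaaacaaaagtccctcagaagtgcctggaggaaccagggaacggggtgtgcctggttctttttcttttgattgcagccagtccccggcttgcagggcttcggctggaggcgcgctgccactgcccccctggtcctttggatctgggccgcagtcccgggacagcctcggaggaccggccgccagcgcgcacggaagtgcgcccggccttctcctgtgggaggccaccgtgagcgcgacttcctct
Itga5: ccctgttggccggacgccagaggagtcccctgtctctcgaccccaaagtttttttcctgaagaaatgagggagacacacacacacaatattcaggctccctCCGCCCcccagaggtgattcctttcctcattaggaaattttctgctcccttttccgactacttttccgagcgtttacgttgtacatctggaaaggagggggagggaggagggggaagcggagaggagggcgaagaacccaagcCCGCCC

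RefSeq gave a promoter for 8 of the 10 subunits, all but Itga7 and Itgb3. GGGCGG was present in 32.7% and CATTCC in 12.6% of 32851 promoters of the same length. Counted back from the start, GGGCGG began at -178, -144 and -35 in Itga3, at -149 and -6 in Itga5, at -151 in Itgb1 and at -199, -63 and -34 in Itgb5. A further Itga3 promoter in the table had it at -246. CATTCC was found once, at -7 in Itgb1. Itgav, Itga1, Itga2 and Itga8 held neither motif in this window. The CArG box of serum response factor was in 1.47% of all promoters and TGANTCA, the element of AP-1, in 6.75%, and neither was in the window of any of the 8 subunits. These are matches of letters and not measured binding.

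With the long CASC15 knockdown in untreated cells, the main beta chain and the main laminin receptor chain fell and Itgav rose. Itgb1 fell to 75.1% and Itga3 to 73.9% of control, and Itgav rose to 119%. Itga8 was near absent in controls and very low with the knockdown. The other 6 subunits did not pass the test. In a bulk measurement like this, fewer cells of a type and less RNA per cell cannot be told apart. In all, 4 of 10 subunits were called (edgeR's quasi-likelihood test, Benjamini-Hochberg adjusted p under 0.05), where 25% of all genes tested were called. Itga8 entered the test only through knockdown libraries, so its call is no support for a change, and 3 of the other 9 were called. Apart from Itga8, the groups did not overlap for 3 of 9 subunits, against 24.5% of all genes. The median log2 fold change over the 10 was -0.02, beside 0.02 over all genes.

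Itgb1, the shared beta chain, was at 1374, 1244, 1255 and 1518 CPM in the untreated controls of batches P16, P17, P18 and P19. It was at 960.1, 941, 958 and 1190.3 CPM in the long knockdown libraries of the same batches. Every knockdown library lay below every control library, and P19 was the highest of both groups. On the log2 scale Itgb1 changed by -0.41 ± 0.10 (fold change ± SE, adjusted p 0.00367), with log2 ratios within batches of -0.52 to -0.35.

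Itga3, the laminin receptor chain, was at 237, 234, 227 and 254 CPM in the controls and 161, 176, 166 and 201 in the knockdown, in the same order of batches. These groups did not overlap either, and P19 was again the highest library of each. The Itga3 log2 fold change was -0.44 ± 0.09 (adjusted p 0.00119), and the ratio was negative in all 4 batches.

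Itgav, the chain that pairs with Itgb1, Itgb3 and Itgb5 to bind RGD ligands, moved the other way. It was at 308, 275, 292 and 328 CPM in the controls and 342, 357, 359 and 370.2 in the knockdown. The lowest knockdown library was above the highest control library. The rise was smaller than the falls of Itgb1 and Itga3, with a log2 fold change of 0.25 ± 0.06 (adjusted p 0.00509), and it was present in all 4 batches.

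Itga8, the nephronectin receptor chain, had 1, 1, 1 and 2 counts in the controls and 40, 3, 15 and 4 counts in the knockdown libraries. All knockdown libraries were above all controls, but P16 held most of the counts, at 1.87 CPM against 0.167, 0.815 and 0.212 in P17, P18 and P19. The 4 controls were at or under a floor of 3 counts per library. Set against that floor, the mean with the knockdown was at least 5.68-fold higher, and at least 2.95-fold higher without the P16 knockdown library. The adjusted p was 0.00638, and 0.0516 without that library, in a test that Itga8 entered only through the group where it was high.

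Itga2, a collagen receptor chain, was at 22.8, 17.4, 11.2 and 8.84 CPM in the controls and 13.2, 12.5, 8.21 and 7.91 in the knockdown. The knockdown library was lower within each batch, but batches differed more than groups did, and the groups overlapped. Its log2 fold change was -0.52 ± 0.30 (adjusted p 0.223). With the batch as a block, Itga2 fell as well, with a log2 fold change of -0.49 (adjusted p 0.00508), and 5 of 10 subunits were called where 40.6% of all genes were.

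For the other 5 subunits the groups overlapped in every case. The fibronectin receptor chain Itga5 was at 71.8 ± 5.69 and 68.0 ± 4.21 CPM, with a 95% interval of the log2 difference from -0.23 to 0.07. The beta chains Itgb3 (57.9 ± 8.27 and 58.4 ± 5.08) and Itgb5 (289 ± 31.3 and 277 ± 26.4) had intervals from -0.24 to 0.27 and from -0.28 to 0.15. Intervals were wider for the scarcer Itga1, from -0.38 to 0.53, and Itga7, from -0.16 to 0.60.

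**Figure D2:**
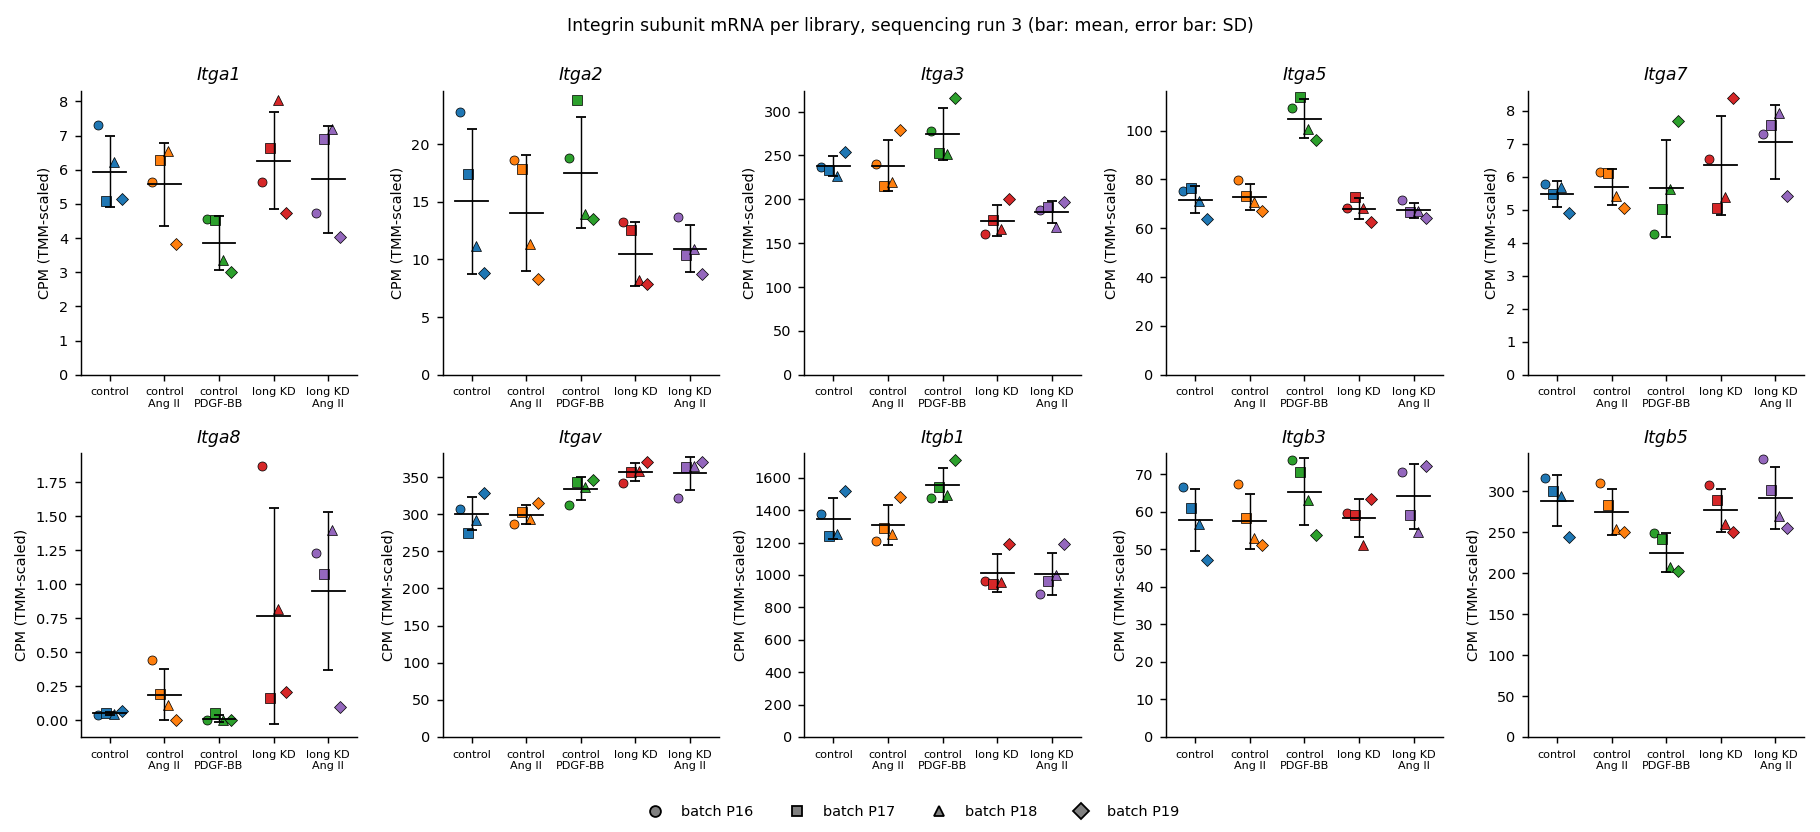
CPM of each of the 10 subunits in every library of run 3, with group means (horizontal line) and SD (error bar), and batches as marker shapes. The long knockdown (long KD) libraries of Itgb1 and Itga3 lie below all libraries of the untreated control, those of Itgav lie above them, and Itga5 is highest in the PDGF-BB libraries at 96.1 to 114 CPM.

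Genes that work with these subunits also changed with the long knockdown. Of 17 further integrin subunits 9 were tested, and 2 were called higher and 4 lower, 66.7% of those tested beside 25% of all genes. One of the lower calls, Itgb7, passed the filter only through libraries without the knockdown, which leaves 5 calls. Itgb8, a beta chain that pairs with Itgav, rose from 2.84 ± 0.821 to 11.6 ± 2.09 CPM, a log2 fold change of 2.01 (adjusted p 4.28e-07). Itga4, a fibronectin and VCAM1 receptor chain, rose from 22.1 ± 2.07 to 33.8 ± 10.9 CPM (adjusted p 0.0172). Itgb4, the beta chain of the hemidesmosomal laminin receptor, fell from 68.2 ± 17.8 to 21.0 ± 0.429 CPM, by 1.69 on the log2 scale (adjusted p 1.56e-05). Itgb2, the beta chain of leukocyte integrins, fell from 5.66 ± 0.317 to 2.68 ± 1.07 CPM (adjusted p 0.00164).

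Of 33 tested adaptors and kinases of adhesion sites, 2 were called higher and 10 lower, 36.4% of the list beside 25% of all genes, with a median log2 fold change of -0.16 beside 0.02 over all genes. With the batch as a block 5 were called higher and 15 lower, 20 of 33 where 40.6% of all genes were called. Parva, the parvin that links integrin-linked kinase to actin, fell from 218 ± 15.6 to 134 ± 13.9 CPM (adjusted p 5.08e-07). Tln2, one of the talins that bind beta chain tails, fell from 26.8 ± 1.40 to 17.8 ± 2.63 CPM (adjusted p 0.000291). The tensin Tns1 rose from 448 ± 31.9 to 653 ± 32.2 CPM (adjusted p 6.89e-06), and paxillin (Pxn) rose from 112 ± 8.11 to 127 ± 4.85 CPM (adjusted p 0.0426).

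Matrix ligands changed in both directions, with 9 called higher and 7 lower of 27 tested (59.3%, beside 25% of all genes). Col1a2, a chain of type I collagen, fell from 1324 ± 157 to 390 ± 52.5 CPM (adjusted p 3.09e-09). Nephronectin (Npnt), the ligand of the Itga8 receptor, fell from 117 ± 15.4 to 46.0 ± 30.2 CPM (adjusted p 0.0133). Type III collagen (Col3a1) rose from 30.6 ± 12.4 to 97.1 ± 31.6 CPM (adjusted p 0.00624), and Tgfbi, a matrix protein bound by several integrins, rose from 0.588 ± 0.499 to 4.68 ± 2.33 CPM (adjusted p 0.00381). Of 12 membrane partners of integrins, 2 were called higher and 5 lower (58.3%, beside the same 25%). Cd47, which associates with beta3 integrins, fell from 275 ± 31.7 to 157 ± 21.0 CPM (adjusted p 1.5e-05), and the urokinase receptor Plaur fell from 13.9 ± 2.15 to 6.62 ± 3.10 CPM (adjusted p 0.0209). The tetraspanins Cd82 (68.7 ± 2.59 to 90.7 ± 3.79 CPM) and Cd81 (261 ± 20.3 to 295 ± 18.7) rose, with adjusted p of 0.000353 and 0.0454.

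Markers of cell types were also called in the same comparison, where 25% of all genes were. Of 9 tested smooth muscle markers 2 were called higher (Myh11 and Smtn) and 2 lower (Myocd and Myl9), but Myh11 passed the filter only through knockdown libraries, so its call is no support for a change. The 10 listed genes summed to 926 to 1140 CPM in control libraries and 820.1 to 989 with the knockdown. Of 5 tested fibroblast genes 2 were called higher and 2 lower. With the block, 3 fibroblast genes were called higher and 2 lower, and 2 smooth muscle markers higher and 4 lower. The blocked fit called 40.6% of all genes. Of its smooth muscle calls, 2 were of genes that passed the filter only through the side where they were higher. Both tested epithelial genes were called lower, and that list summed to 97.6 to 129 CPM in controls and 36.6 to 69.9 with the knockdown, nearly all of it Cdh1, with Epcam at 0 in all 4 knockdown libraries. The other of them, Krt8, passed the filter only through libraries without the knockdown. The leukocyte list summed to 6.13 to 7.45 and 2.43 to 6.05 CPM, mostly Itgb2, with Ptprc and Adgre1 at 0 in both groups. Of 2 tested endothelial genes Vwf was at 0.144 CPM in controls and 0.688 with the knockdown and was called, but it passed the filter only through knockdown libraries, so its call is no support for a change. That list summed to 1.25 to 2.65 CPM in controls and 1.91 to 3.78 with the knockdown, with Cdh5 and Erg at 0 in both groups. The platelet list, nearly all Itga2b, summed to 4.23 to 10.7 and 8.17 to 12.6 CPM, and Itga2b was called higher with the block (adjusted p 0.000557) but not without it (0.0839). The part of these markers in the changes of the integrin genes was not tested.

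Under angiotensin II the long knockdown again lowered Itgb1 and Itga3 and raised Itgav, 3 of the 9 subunits other than Itga8, where 26.7% of all genes were called. Itga8, which entered the test only through knockdown libraries, was the fourth call and is no support for a change. The blocked fit called the same 4, where 41.3% of all genes were called. Itgb1 fell from 1309 ± 121 to 1008 ± 130.2 CPM, with a log2 fold change of -0.38 ± 0.10 (adjusted p 0.007). Itga3 fell from 238 ± 28.8 to 186 ± 12.7 CPM (-0.36 ± 0.09, adjusted p 0.00558), and Itgav rose from 299.5 ± 12.2 to 355 ± 21.9 CPM (0.24 ± 0.06, adjusted p 0.00538). These 3 subunits were also the ones whose groups did not overlap, against 24.8% of all genes. The untreated and angiotensin II comparisons use different libraries, but libraries of both share their batches.

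In single libraries, Itgb1 was at 1207, 1291, 1255 and 1484 CPM in the angiotensin II controls of P16 to P19 and 883, 961, 999.8 and 1189.6 with the knockdown. The highest knockdown library, P19, was just below the lowest control library, P16. Itga3 was at 240.3, 215, 219.6 and 278 CPM in the controls and 187, 191, 168 and 197 in the knockdown, and Itgav was at 287, 304, 293 and 315 CPM and 322, 363, 364 and 369.7. For Itgav the gap between the groups was narrow, from 315 to 322 CPM. Itga8 had 7, 4, 2 and 0 counts in the controls and 24, 20, 28 and 2 in the knockdown, so the groups overlapped through the P19 knockdown library. Itga8 differed by 2.30 ± 0.81 on the log2 scale (adjusted p 0.0401), and that call was lost when any of 6 single libraries was left out, with adjusted p of 0.0818 to 0.108.

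Whether the knockdown response differed with angiotensin II was tested as an interaction. It was called for 0 of 10 subunits and 0% of all genes by edgeR, with 166 genes at an unadjusted p under 0.05 and 1 gene, 0.00663% of those tested and none of the 10, called by DESeq2. The log2 difference of the responses was 0.04 for Itgb1 (95% interval -0.25 to 0.32), 0.08 for Itga3 (-0.19 to 0.34) and 0.00 for Itgav (-0.18 to 0.18). Of the lists, 8 of 9 further subunits (88.9%), 12 of 33 adaptors (36.4%), 16 of 27 ligands (59.3%) and 5 of 12 membrane partners (41.7%) were called with the knockdown under angiotensin II, beside 26.7% of all genes. Without Itgb7, which passed the filter only through libraries without the knockdown, 7 further subunits were called. The blocked fit called 8 partners, where 41.3% of all genes were. Itgb4 fell from 64.5 ± 17.1 to 23.1 ± 1.43 CPM and Itgb8 rose from 3.69 ± 0.902 to 12.2 ± 1.67. Itga11, a collagen receptor chain, was also called there, from 6.10 ± 1.63 to 9.33 ± 1.34 CPM (adjusted p 0.044). Parvb, a parvin paralog, rose from 0.540 ± 0.311 to 1.90 ± 0.667 CPM (adjusted p 0.0125). Of the cell type markers tested there, Myh11 and Smtn were called higher and Myocd, Myl9 and Cald1 lower among 9 smooth muscle genes. Of 5 fibroblast genes 1 was called higher and 2 lower, while the blocked fit called 3 higher and 2 lower. Both tested epithelial genes and the leukocyte gene Itgb2 were called lower, with epithelial sums of 104 to 128 CPM in controls and 35.4 to 64.5 with the knockdown. The endothelial Vwf was called as well, with endothelial sums of 0.863 to 2.22 and 2.24 to 4.16 CPM. The platelet list, nearly all Itga2b, summed to 4.93 to 7.72 CPM in controls and 7.92 to 13.2 with the knockdown, and Itga2b was not called. In the blocked fit Itga2b and both of 2 tested endothelial genes were called higher, and 3 smooth muscle genes were called higher and 3 lower. As without treatment, Myh11 and Vwf passed the filter only through knockdown libraries and Krt8 only through the others, so these calls are no support for a change. Their part in the integrin changes was not tested.

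Angiotensin II itself changed none of the 10 subunits past the test, in control or in long knockdown cells. edgeR called 0% of all genes in both comparisons, with 156 and 174 genes at an unadjusted p under 0.05, none of them one of the 10, and DESeq2 called 1 gene (0.00663%) and 0 genes. Libraries with and without angiotensin II overlapped for every subunit in both comparisons, while the groups were separate for 0.953% of all genes in control cells and 1.09% in knockdown cells. In control cells, Itgb1 was at 1348 ± 128 CPM without and 1309 ± 121 with angiotensin II, a log2 difference of -0.04 with a 95% interval from -0.24 to 0.16. The interval for Itgav was -0.13 to 0.12, for Itga5 -0.13 to 0.17, for Itga3 -0.18 to 0.19, for Itgb5 -0.29 to 0.14 and for Itgb3 -0.26 to 0.24. The scarcer chains were less well bounded, with Itga7 at -0.32 to 0.44, Itga1 at -0.55 to 0.37 and Itga2 at -0.73 to 0.53. In long knockdown cells the widest interval among these 9 was again that of Itga2, from -0.58 to 0.70. Itga8 was at most 0.443 CPM in the control libraries of both groups.

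PDGF-BB changed 4 of the 10 subunits in control cells. The fibronectin receptor chain Itga5 rose to 146% of untreated cells, the collagen receptor chain Itga1 fell to 64.9% and Itgb5 to 78.0%, and Itgav rose to 111%. Beside these 4 of 10, 43.6% of all genes were called, so their number was no higher than the background. The median log2 fold change of the 10 was 0.16, beside -0.02 over all genes. The groups did not overlap for Itga5 and Itga1, 2 of 10, against 40.7% of all genes. With the batch as a block Itga3 and Itgb1 rose as well, giving 6 of 10 where 54.5% of all genes were called. The PDGF-BB, angiotensin II and long knockdown comparisons in untreated or control cells share the 4 untreated control libraries.

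Itga5 was at 75.3, 76.6, 71.1 and 64.0 CPM in the untreated controls of P16 to P19 and 109, 114, 101 and 96.1 with PDGF-BB. All treated libraries were above all controls, and P19 was the lowest of each group. The log2 fold change was 0.55 ± 0.07 (adjusted p 3.87e-06), with ratios within batches of 0.50 to 0.59.

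Itgb5, the partner of Itgav in a vitronectin receptor, was at 317, 301, 294 and 244 CPM in the controls and 249, 242, 207 and 202 with PDGF-BB. The groups overlapped only through P19, whose control was below the treated library of P16, and the treated library was lower in each batch. On the log2 scale the change was -0.36 ± 0.10 (adjusted p 0.00809).

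Itga1 was at 7.31, 5.09, 6.23 and 5.15 CPM in the controls and 4.54, 4.52, 3.37 and 3.003 with PDGF-BB. The groups were separate but close, from 4.54 to 5.09 CPM. On the log2 scale the change was -0.62 ± 0.22 (adjusted p 0.0296). The call was lost without the P16 or P18 control or the P18 or P19 treated library, with adjusted p of 0.0633 to 0.086.

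Itgav was at 308, 275, 292 and 328 CPM in the controls and 312, 344, 336 and 346 with PDGF-BB, and these groups overlapped. The log2 fold change was 0.15 ± 0.06 (adjusted p 0.0468). That call was lost with DESeq2's size factors (adjusted p 0.0643), with no filter on low counts (0.184), with a filter at a mean CPM of 1 (0.115), with only these groups in the fit (0.175) and when any of 6 single libraries was left out (0.077 to 0.305).

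Itgb1 was at 1475, 1542, 1497 and 1709 CPM with PDGF-BB, against 1374, 1244, 1255 and 1518 in the controls. Itga3 was at 277, 253, 251 and 315 CPM against 237, 234, 227 and 254. For both, the treated library was higher in each of the 4 batches, while the groups overlapped through the P19 control. The log2 fold changes were 0.21 ± 0.10 (adjusted p 0.0915) and 0.20 ± 0.09 (adjusted p 0.07), and with the batch as a block the adjusted p were 0.000662 and 0.00146. For Itga2, Itga7 and Itgb3 the 95% intervals were -0.40 to 0.84, -0.33 to 0.43 and -0.08 to 0.43. Itga8 had 0, 1, 0 and 0 counts with PDGF-BB, at the floor in both groups.

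**Figure D3:**
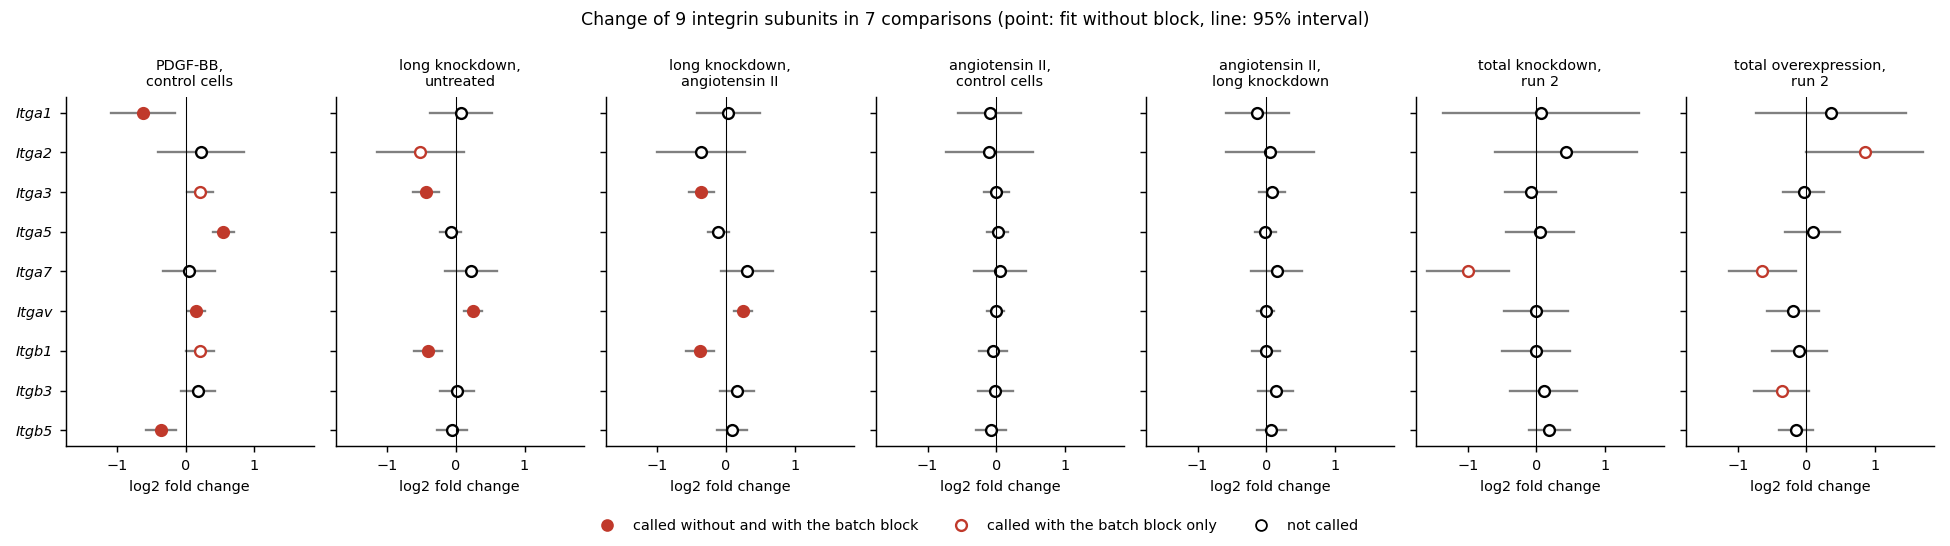
Log2 fold change (point) with its 95% interval (line) for 9 subunits in 7 comparisons, with Itga8 left out because its interval would not fit the axis. Filled points were called without and with the batch block, open red points with the block only: Itgb1, Itga3 and Itgav are filled in both long knockdown panels, Itga5 has the largest rise with PDGF-BB at 0.55, and no point is red for angiotensin II.

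Around these subunits PDGF-BB lowered Itga11, the collagen receptor chain often found on mesenchymal cells, from 7.72 ± 1.34 to 1.44 ± 0.512 CPM, by 2.41 on the log2 scale (adjusted p 1.82e-07). Itga4 fell from 22.1 ± 2.07 to 13.4 ± 2.41 CPM (adjusted p 0.00355). The laminin receptor chain Itga6 rose from 20.0 ± 3.33 to 29.6 ± 3.76 CPM (adjusted p 0.000938), and Itgb7 rose from 0.731 ± 0.357 to 1.79 ± 0.347 CPM (adjusted p 0.0174). These were the 4 calls among 9 further subunits tested (44.4%), a share near the 43.6% of all genes.

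Of 33 adaptors and kinases 6 were called higher and 10 lower (48.5%, again near the 43.6% of all genes). Zyxin (Zyx), which gathers at adhesions under tension, fell from 610.2 ± 22.7 to 369 ± 51.9 CPM (adjusted p 1.4e-06), and Lims2, a partner of integrin-linked kinase, fell from 4.19 ± 0.205 to 1.25 ± 0.105 CPM (adjusted p 1.33e-06). Tln2 rose from 26.8 ± 1.40 to 33.9 ± 2.56 CPM (adjusted p 0.0105) and Tns2 from 176 ± 20.0 to 221 ± 25.9 CPM (adjusted p 0.00691).

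Of 27 ligands 8 were called higher and 5 lower (48.1%, beside 43.6% of all genes). Osteopontin (Spp1), an RGD ligand of Itgav receptors, rose from 3.18 ± 1.29 to 57.8 ± 39.2 CPM (adjusted p 3.8e-06), and the laminin chain Lama4 rose from 14.4 ± 1.58 to 25.7 ± 4.69 CPM (adjusted p 0.000119). Tenascin C (Tnc) fell from 28.2 ± 10.5 to 8.23 ± 0.868 CPM (adjusted p 0.000146) and fibulin 5 (Fbln5), an elastic fibre protein with an RGD motif, from 137 ± 8.56 to 50.7 ± 5.27 CPM (adjusted p 5.16e-06). Of 12 membrane partners 5 were called higher and 0 lower (41.7%, beside 43.6%), among them Cd82 (68.7 ± 2.59 to 119 ± 7.40 CPM, adjusted p 3.25e-08) and Plaur (13.9 ± 2.15 to 24.2 ± 6.75 CPM, adjusted p 0.0455).

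Among cell type markers there were calls with PDGF-BB too, in a comparison where 43.6% of all genes were called. Of 9 tested smooth muscle markers 1 was called higher (Smtn) and 2 lower (Acta2 and Cald1), and the list summed to 723 to 819 CPM against 926 to 1140 in untreated cells, with Cnn1 at 0 in all treated libraries. Of 5 tested fibroblast genes 2 were called higher and 3 lower (Lum among these, which passed the filter only through libraries without PDGF-BB), with list sums of 3036 to 4293 CPM against 3444 to 3938. Of 2 tested epithelial genes 1 was called higher, and that list, nearly all Cdh1, summed to 157 to 199 CPM against 97.6 to 129. Of 2 tested endothelial genes Pecam1 was called lower, but it passed the filter only through libraries without PDGF-BB, and that list summed to 0.356 to 1.05 CPM against 1.25 to 2.65, with Cdh5 and Erg at 0 in both groups. No leukocyte gene of 2 tested was called, and that list, mostly Itgb2, summed to 7.40 to 10.6 CPM against 6.13 to 7.45. The platelet list, nearly all Itga2b, summed to 3.10 to 6.16 CPM against 4.23 to 10.7, and Itga2b was not called. The blocked fit, in which Itgb1 and Itga3 were called, also called Itgb2 higher (adjusted p 0.0111) and Itga2b lower (0.0083). It called only 1 fibroblast gene higher and 3 lower, and 54.5% of all genes. The part of these markers in the integrin changes was not tested.

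In the libraries labelled total knockdown none of the 10 subunits was called, where 2.07% of all genes were. edgeR gave 1 subunit, Itga7, an unadjusted p under 0.05, with 1975 genes below that value in the whole table, and DESeq2 called that 1 subunit (adjusted p 0.0252) and 4.69% of all genes. With the batch as a block Itga7 and Itga8 fell, 2 of 10, where 14.4% of all genes were called. Itga7, a laminin receptor chain of muscle, was at 15.5 and 25.0 CPM in the controls of P17 and P18 and 9.78 and 10.6 in the libraries labelled total knockdown. Both of these were below both controls. With groups this small the libraries were separate for 5 of 10 subunits and for 49.4% of all genes. Itga7 had a log2 fold change of -0.99 ± 0.27 with an adjusted p of 0.102, and the blocked fit gave -0.97 with an adjusted p of 0.00684.

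Itga8 was at 3.16 and 3.01 CPM in the controls of run 2 and 1.10 and 1.34 in the libraries labelled total knockdown. Those are 71 and 61 counts against 22 and 30, so Itga8 was above the floor in this run. Its difference of -1.33 ± 0.67 on the log2 scale had an adjusted p of 0.461, and the blocked value of -1.34 one of 0.00896. The abundant subunits showed little difference. Itgb1 was at 892 and 818 CPM against 866 and 839.9, and its 95% interval was -0.50 to 0.49. For Itga3 the interval was -0.46 to 0.29, for Itgav -0.47 to 0.47, for Itga5 -0.44 to 0.55, for Itgb3 -0.38 to 0.59 and for Itgb5 -0.11 to 0.49.

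Further subunits did change in these libraries. Itgb7, a lymphocyte integrin chain, rose from 0.215 ± 0.115 to 7.52 ± 3.11 CPM (adjusted p 0.0124), and Itga2b, the platelet fibrinogen receptor chain, rose from 14.7 ± 3.59 to 46.6 ± 8.53 CPM (adjusted p 0.0267). They were 2 of 10 tested, beside 2.07% of all genes, and 5 were called with the block, beside 14.4%. Of 33 adaptors 2 were called, and 4 with the block, beside the same shares of all genes: Fermt3, the kindlin of blood cells, rose from 0.774 ± 0.0233 to 6.98 ± 0.581 CPM (adjusted p 0.0124), and vinculin (Vcl), which couples talin to actin, fell from 738 ± 31.0 to 216 ± 92.4 CPM (adjusted p 0.0148). None of 28 ligands and none of 12 membrane partners was called, but with the block 4 ligands were called higher and 7 lower and 2 partners lower, where 14.4% of all genes were called. The leukocyte list summed to 3.36 to 4.05 CPM in the controls and 26.6 to 31.4 in the libraries labelled total knockdown, with 2 of 3 tested genes (Cd68 and Csf1r) called higher, of which Csf1r passed the filter only through the 2 libraries labelled total knockdown and is no support for a change, while Ptprc was at 0 in both groups and Adgre1 at 0.0224 CPM or less. The platelet list summed to 12.3 to 17.3 and 40.7 to 52.9 CPM, nearly all Itga2b, with Pf4, Gp9 and Ppbp at 0.117 CPM or less. Of 9 tested smooth muscle markers Myh11 was called higher, from 0.989 ± 0.138 to 5.49 ± 1.67 CPM (adjusted p 0.0239). No endothelial gene of 2 tested was called, and that list summed to 2.81 to 3.90 CPM in controls and 6.02 to 10.1 in the libraries with that label. In the blocked fit both were called higher (Pecam1, adjusted p 0.0261, and Vwf, 0.0163), as were Itgb2 (0.00113) and Cdh1 (0.0168), and the fibroblast genes Pdgfra (0.000774) and Lum (0.00875) lower. The block also called the smooth muscle gene Des higher, which passed the filter only with the help of the libraries labelled total knockdown. Their part in these changes was not tested.

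**Figure D4:**
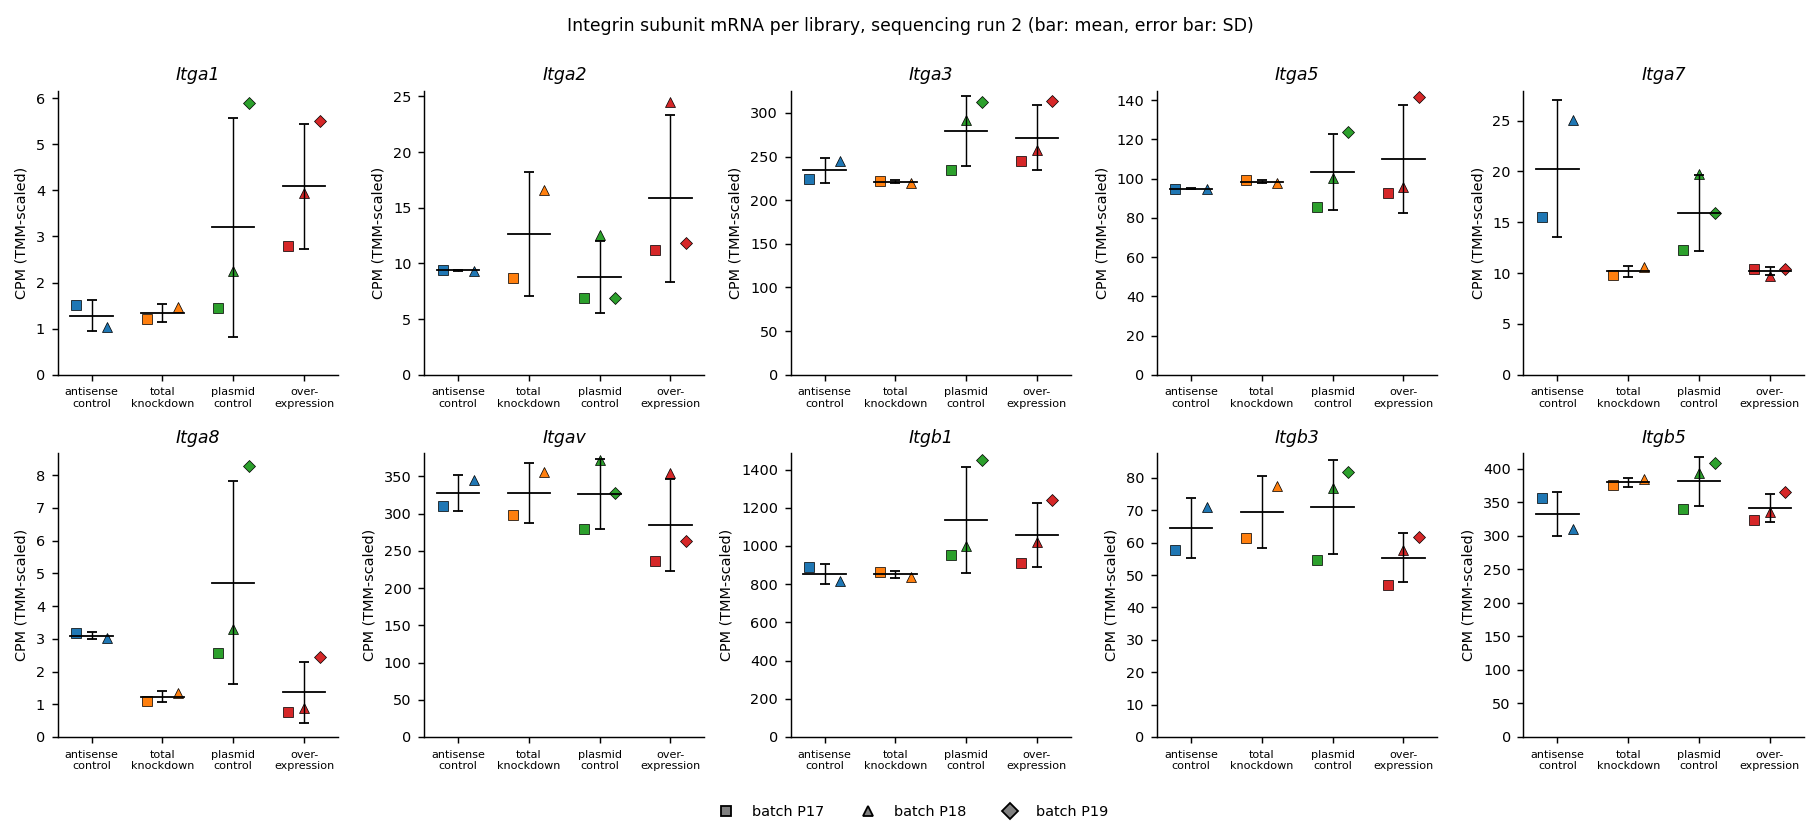
CPM of each of the 10 subunits in every library of run 2, with group means (horizontal line) and SD (error bar) over 2 or 3 libraries, and batches as marker shapes. Itga7 and Itga8 lie lower in the libraries labelled total knockdown and in the overexpression libraries than in their own controls, for example at 9.75 to 10.4 CPM for Itga7 with overexpression against 12.2 to 19.7.

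With total CASC15 overexpression none of the 10 subunits was called either, where 1.65% of all genes were. Here edgeR gave 2 subunits, Itga7 and Itga8, an unadjusted p under 0.05, beside 2295 genes in all, and DESeq2 called 1 subunit, Itga8 (adjusted p 0.0425), and 5.27% of all genes. With the batch as a block 4 of 10 were called, where 17.7% of all genes were: Itga2 rose and Itga7, Itga8 and Itgb3 fell. Itga8 was at 2.57, 3.30 and 8.28 CPM in the plasmid controls of P17 to P19 and 0.749, 0.897 and 2.44 with overexpression. Each overexpression library was below every control, and P19 was the highest of both groups. The difference was -1.78 ± 0.55 on the log2 scale (adjusted p 0.166), and -1.79 in the blocked fit (adjusted p 0.000537).

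Itga7 was at 12.2, 19.7 and 15.9 CPM in the plasmid controls and 10.4, 9.75 and 10.4 with overexpression, again without overlap. It differed by -0.64 ± 0.22 on the log2 scale (adjusted p 0.202, blocked 0.023). Itga2 was at 6.94, 12.5 and 6.92 CPM and 11.2, 24.5 and 11.8, higher in each batch, with P18 the highest of both groups and overlap between them. It differed by 0.85 ± 0.38 (adjusted p 0.337, blocked 0.0148). Itgb3, the beta chain of the vitronectin receptor, was at 54.6, 77.0 and 81.8 CPM and 47.0, 57.6 and 61.6, lower in each batch (-0.36 ± 0.18, adjusted p 0.382, blocked 0.0075). Groups did not overlap for 2 of 10 subunits, against 18% of all genes.

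The remaining 6 subunits were not called with or without the block. Their intervals were -0.35 to 0.26 for Itga3, -0.51 to 0.30 for Itgb1, -0.31 to 0.50 for Itga5, -0.58 to 0.18 for Itgav, -0.41 to 0.09 for Itgb5 and -0.74 to 1.46 for Itga1. Among the listed partners, Itga11 fell from 7.02 ± 1.77 to 3.14 ± 0.344 CPM (adjusted p 0.0489), 1 of 10 further subunits tested, and 5 with the batch as a block. Zyx fell from 804 ± 85.7 to 464 ± 46.0 CPM (adjusted p 0.016) and Tgfb1i1, a member of the paxillin family, from 86.5 ± 6.23 to 57.0 ± 3.22 CPM (adjusted p 0.0193), 2 of 33 adaptors, and 7 with the block. Cd47 rose from 318 ± 80.8 to 625 ± 116 CPM (adjusted p 0.0467), 1 of 12 membrane partners, and 4 with the block. Of 28 ligands 0 were called, and 5 higher and 8 lower with the block. Beside these counts, 1.65% of all genes were called without the block and 17.7% with it. Of 9 tested smooth muscle markers Myl9 was called lower. The leukocyte list summed to 3.96 to 12.8 CPM in plasmid controls and 10.1 to 25.4 with overexpression, mostly Itgb2, and 0 of 3 tested genes were called. In the blocked fit, Itgb2 (adjusted p 0.00109) and Csf1r (0.0418, from 5 to 7 counts against at most 1) were called higher. So were the epithelial Cdh1, at 51.1 ± 10.99 CPM in plasmid controls and 111 ± 42.7 with overexpression (adjusted p 0.00285), and the fibroblast gene Pdgfra, while Lum, Pi16 and the smooth muscle gene Cald1 were called lower beside Myl9. Their part in the integrin differences was not tested.

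The responses to the knockdowns labelled total and long were then compared directly, each against the controls of its own run. The difference was called for Itga7, 1 of the 9 subunits other than Itga8, where 13.2% of all genes were called. It was also called for Itga8, which passed the filter in run 3 only through knockdown libraries, so that call is no support for a difference. For Itga7 the total response was below the long response by 1.22 on the log2 scale (difference -1.22 ± 0.32, adjusted p 0.0103), and for Itga8 the difference was -5.04 ± 1.26 (adjusted p 0.00827). The Itga8 value rests on the near absence of counts in run 3 controls and is no measure of size. The Itga7 call was lost without the P18 antisense control or the P18 library labelled total knockdown. For Itgb1 the difference was 0.40 (95% interval -0.04 to 0.83) and for Itga3 0.34 (-0.02 to 0.70), neither of them called. With the batch as a block 7 of 10 were called, where 31.8% of all genes were, adding Itgb1 (adjusted p 0.00165), Itga3 (0.00561), Itga2 (0.0199), Itgav (0.0413) and Itgb5 (0.0442). The difference was also called higher for 3 of 3 tested leukocyte markers (Csf1r among them), 2 of 2 epithelial, 2 of 9 smooth muscle and 1 of 4 endothelial ones, and for 1 of 6 fibroblast markers in each direction, and their part in it was not tested. Csf1r passed the filter of run 2 only through the libraries labelled total knockdown, so its call is no support for a difference. Whether the other called markers passed the filter of this fit only through libraries in which they were high was not checked. Run and knockdown label cannot be told apart in this difference beyond what the controls of each run remove.

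Subunits also varied together with the batch inside each group. In run 3, P19 was the highest library for Itgb1, Itga3 and Itgav in 5 of 5 groups, and the lowest for Itga2, Itga5 and Itgb5 in 5 of 5. Itga1 was lowest in P19 in 4 of 5 groups. In run 2, where P19 is present in 2 groups, it was again the highest for Itgb1 and Itga3 in both, but it was also the highest for Itga1, Itga5, Itga8, Itgb3 and Itgb5, the reverse of run 3 for Itga1, Itga5 and Itgb5. For Itgav it was neither the highest nor the lowest. Across the 20 libraries of run 3, which share groups and batches, log2 CPM of Itgb1 and Itga3 had a Pearson r of 0.928, of Itgb1 and Itgav -0.298, and of Itgb1 and Itgb5 -0.673. By the same measure, out of 11458 candidate genes, the pattern most like that of Itgb1 was that of the adaptor Crk (r = 0.990), then Atp13a3 (0.985). For Itga3 these were Rnf10 (0.977) and Cdipt (0.9753), for Itgav Rock1 (0.959) and Ube3a (0.946), for Itga5 Fam83d (0.959) and Ldha (0.956), and for Itgb5 Scara3 (0.940) and Ptov1 (0.931). For the scarcer Itga7 the closest gene, Ctf1, reached 0.702.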

How the data were processed

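RNA-seq was measured in 30 libraries of 9 groups. The deposited values are expected counts for each gene, estimated by the authors with RSEM 1.3.1 after alignment with STAR 2.7.11b, per the submitters' processing notes, which name both GRCm39 and mm10. The annotation and read filters are not given in the sources used here. Of 78334 identifiers, 51486 matched a symbol (98.7% of counts).

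Expected counts were rounded. Each run was fitted separately over all its groups with edgeR 4.0.16 (limma 3.58.1, R 4.3.3): filterByExpr (minimum count 10, total 15), TMM scaling and the two-sided robust quasi-likelihood test, Benjamini-Hochberg adjusted over 15350 genes in run 2 and 15103 in run 3. Calls were made at an adjusted p under 0.05. The difference between the knockdowns was fitted over all libraries. CPM are TMM-scaled. RPKM used the longest transcript of the GRCm38 annotation. A floor of 3 counts per library was used, and intervals are at 95%. Tested on simulated data, the fit returned the simulated fold changes in the median but called only part of the changed genes, and fewer in run 2 than with the PDGF-BB libraries of run 3.

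Library totals ranged from 15771490 to 30362047, and edgeR's biological coefficient of variation was 0.232 (run 2) and 0.148 (run 3). No replicate pair agreed within sampling noise (chi-square per degree of freedom 4.22 to 74.6 over 38 pairs). The labels give a batch that runs with the replicate number. Deviations from group means correlated within batches at a mean r of 0.230 in run 2 (13 pairs) and 0.197 in run 3 (40 pairs), against -0.121 and -0.0606 between batches. The batch was therefore used as a replicate block in an alternative fit, under which, for example, 2 subunits were called in the libraries labelled total knockdown. Other alternatives were DESeq2 1.42.0, its size factors in edgeR, all genes kept whatever their counts, only genes with a mean CPM of 1 or more, a fit of just the groups compared, leaving out each library and, chosen after seeing the data, leaving out batch P19.

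The subunits, the lists of further subunits, adaptors, ligands and membrane partners, and the cell type markers were chosen with earlier results of these data known. From each list the text names up to 2 called genes with the largest increase and 2 with the largest decrease, provided they averaged 1 CPM or more in the compared groups, a condition Itgb7 missed with the long knockdown. Promoter sequences are from RefSeq (GRCm38.p6).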

Additional observations from a re-analysis of the deposited data

Results flagged for a closer look

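In 3 of 50 groups of 4 libraries, 1 library stood apart from the others by Dixon's criterion, which chance meets in about 1 in 20 groups. Itga8 in the PDGF-BB library of P17 was at 0.0514 CPM, from 1 count, with the others at 0. Itgav in the long knockdown library of P16 with angiotensin II was at 322 CPM, with the others at 363 to 369.7. Itgb1 in the untreated long knockdown library of P19 was at 1190.3 CPM, with the others at 941 to 960.1.

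The responses to the knockdowns labelled total and long differed, by a test of the difference itself, for Itga7 (-1.22 on the log2 scale). For Itga8 the value was -5.04, but its controls in run 3 were at the floor and it entered the test there only through knockdown libraries, so that value is no support for a difference and no measure of size.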

How the results depend on the processing

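Over all alternatives, 214 values were computed for fold changes that had been called. Of these 0 changed sign and 23 missed the threshold, all of them for Itga8 with the long knockdown, Itga1 and Itgav with PDGF-BB, and Itga7 in the difference between knockdowns. Of 1186 values for fold changes that had not been called, 103 had the opposite sign. Itgb1, Itga3 and Itgav kept their calls in both long knockdown comparisons under every alternative run. With the libraries labelled total knockdown, the count of subunits called was 1 under DESeq2, with no filter, with only the groups compared and without batch P19, and 2 with the replicate block. With overexpression it was 1 under DESeq2 and without P19, 2 with no filter and 4 with the block. In the difference between knockdowns it was 7 with the block, 4 without P19 and 1 to 2 when single libraries were left out, with 1 when the P18 antisense control or the P18 library labelled total knockdown was omitted. For that difference Itga2, Itga3 and Itgb1 were each called under 2 alternatives, the block among them, and never when a single library was left out. With PDGF-BB it was 2 to 6 when single libraries were left out, with 2 when the P16 control, the P18 control or the P19 treated library and 6 when the P19 control was omitted. The cause of these shifts was not tested. DESeq2 called 4.69% of all genes with the total knockdown label and 5.27% with overexpression. Apart from DESeq2 and the block, shares of all genes are not given here, so those counts have no background beside them. Beside the calls named with the results, the block changed no other call among the 10 subunits. Among further integrin subunits it moved the number called from 6 to 7 and, with angiotensin II, 8 to 9 for the long knockdown, from 4 to 6 with PDGF-BB, from 2 to 5 for the total knockdown label, from 1 to 5 with overexpression and from 4 to 6 in the difference. The block also raised the share of all genes called. For the long knockdown this share went from 25% to 40.6%, and from 26.7% to 41.3% with angiotensin II. It went from 43.6% to 54.5% with PDGF-BB, from 2.07% to 14.4% for the total knockdown label and from 1.65% to 17.7% with overexpression. In the difference it went from 13.2% to 31.8%. Where 1 library of a pair was left out, the remaining one was assumed to vary like the other groups. Low counts limit what can be said of Itga8 in run 3, and of Itga1 and Itga7 less so.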
